A study of Mus musculus with 6 samples.

Results

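Ribosome-associated RNA was examined for 10 genes whose proteins bind microtubules or tubulin and are phosphorylated by GSK3. They were Mapt, Map2 and Map4 (the tau/MAP2 family), Map1a and Map1b (the MAP1 family), Dpysl2, Dpysl3 and Crmp1 (the CRMP family), and Clasp1 and Clasp2. Members were taken by gene name and made up 10 of the 47729 genes and 108 of the 115220 transcripts in the deposited table. The libraries came from the medial prefrontal cortex (mPFC) of male D2Cre/LSL-Flag-Cas9/RiboTag mice, in which Cre made under D2 receptor control turned on both Cas9 and a hemagglutinin-tagged ribosomal protein, Rpl22. The animals were 2.5 to 3 months old at surgery, were on a C57BL/6 background and were sampled 3 weeks after injection. The 3 Ctrl libraries were from mice given AAV GFP, and the 3 Gsk3sKO libraries from mice given AAV Gsk3sgRNA/GFP, which carries the guide RNA against Gsk3b. Both groups therefore made Cas9, and the tagged ribosomes came from every D2 cell of the dissected tissue, infected or not. The labels do not say whether a library was 1 mouse or a pool, so p-values measure the spread between libraries, which may be technical.

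Microtubule-associated proteins bind along the microtubule wall and set its stability and spacing. Tau, the product of Mapt, is enriched in axons, MAP2 in dendrites, and MAP1A and MAP1B along both, while MAP4 is found in most cell types. The CRMPs bind tubulin dimers and promote axon growth, and the CLASPs ride on growing plus ends. GSK3 phosphorylates these proteins after translation, often at a serine or threonine lying ahead of a site already phosphorylated by a priming kinase such as CDK5, and phosphorylation generally weakens their hold on tubulin or the microtubule. The present values are levels of ribosome-bound RNA and carry no information on phosphorylation.

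The tau/MAP2 family shares a carboxy-terminal array of microtubule-binding repeats. In Map2 and Map4, 1 of these repeats lies on a 93-base exon that can be skipped, and its sequence is shown because the exon divides their transcripts into classes that are compared later. Capitals mark the 59 bases (63.4%) that are identical in both genes. The sequences were read from GENCODE M21 transcripts of the GRCm38 build, on the plus strand at chr1:66431527-66431619 for Map2 and chr9:110072613-110072705 for Map4.
Map2: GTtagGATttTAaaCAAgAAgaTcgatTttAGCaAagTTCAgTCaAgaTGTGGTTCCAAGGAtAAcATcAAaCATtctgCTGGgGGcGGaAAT
Map4: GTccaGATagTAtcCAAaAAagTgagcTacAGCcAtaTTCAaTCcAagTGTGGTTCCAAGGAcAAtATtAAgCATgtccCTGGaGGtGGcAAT

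In the CRMP family, GSK3 acts on a carboxy-terminal cluster in which serine 522, the site primed by CDK5, is followed in order by serine 518, threonine 514 and threonine 509. The coding stretch of codons 508 to 525 is shown for Dpysl2 (CRMP2) and Crmp1, because they differ at 1 of these positions. Capitals mark codons 509, 514, 518 and 522, counted from the start codon. The stretch lies at chr14:66806967-66807020 on the minus strand for Dpysl2 and at chr5:37288865-37288918 on the plus strand for Crmp1 (GRCm38, GENCODE M21).
Dpysl2: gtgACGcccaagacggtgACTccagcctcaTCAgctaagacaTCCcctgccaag
Crmp1: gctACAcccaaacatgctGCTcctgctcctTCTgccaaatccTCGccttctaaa
The stretches were identical at 31 of 54 bases (57.4%). Codon 514 encodes threonine in Dpysl2 and alanine in Crmp1, and the other marked codons encode the same amino acid in both genes. A chain of 3 serines or threonines spaced 4 residues apart was present within the last 100 codons of Dpysl2 and Dpysl3 and not of Crmp1. Such a chain occurred in 4577 of 21019 genes with a complete coding sequence (21.8%), so its presence alone does not mark a GSK3 site.

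Values are FPKM, which correct fragment numbers for the length of the transcript and for sequencing depth, so that levels can be compared between genes. A gene total is the sum of the FPKM of its transcripts. Where transcripts of a gene differ in length, its total also depends on how reads were divided between them. The smallest steps between low values put the depth at about 47.0 to 91.2 M steps per library, where a step may be a read or part of a fragment. Neuronal markers summed to 2436 to 2670 FPKM in Ctrl and 2589 to 2740 FPKM in Gsk3sKO. Inhibitory neuron markers (3 of 3 genes) varied more within Ctrl, at 168, 342 and 246 FPKM, against 246 to 278 FPKM in Gsk3sKO. Drd2, the gene that defines the targeted cells, was low, at 1.58 to 14.1 FPKM in Ctrl and 5.96 to 8.32 FPKM in Gsk3sKO. Oligodendrocyte markers (6 of 6 genes listed) summed to 118 to 183 FPKM in Ctrl and 128 to 165 FPKM in Gsk3sKO, with Mog at 0 in Gsk3sKO replicates 2 and 3. Oligodendrocyte precursor markers (3 of 3 genes) summed to 5.19 to 11.9 FPKM in Ctrl and 5.07 to 6.98 FPKM in Gsk3sKO. Astrocyte markers (5 of 5 genes) summed to 55.1 to 67.0 and 49.8 to 70.9 FPKM, microglial markers (5 of 5) to 10.4 to 22.9 and 9.15 to 12.6 FPKM, and endothelial markers (4 of 4) to 9.59 to 32.9 and 13.8 to 31.1 FPKM. Several of the 10 genes, Map4 and Map1b among them, are also made by glia, and the part of glial RNA in their levels was not tested. In libraries of this kind, fewer cells of a type and less RNA per cell cannot be told apart.

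Gsk3b, the target of the guide RNA, was examined first. Its gene total was 35.6, 53.8 and 56.5 FPKM in Ctrl and 36.9, 37.0 and 33.6 FPKM in Gsk3sKO. Ctrl replicate 1 lay within the Gsk3sKO range and the other Ctrl libraries above it. The log2 fold change was -0.40 ± 0.19 (SE, n = 3 and 3, limma p = 0.0648, adjusted p = 0.773, exact permutation p = 0.3), and -0.61 (limma p = 0.00279) without Ctrl replicate 1. The most abundant Gsk3b transcript, ENSMUST00000023507, had 33.5, 34.7 and 36.2 FPKM in Ctrl and 24.8, 21.6 and 21.2 FPKM in Gsk3sKO, without overlap (log2 fold change -0.61 ± 0.14, limma p = 0.00448, adjusted p = 0.619, exact permutation p = 0.1). A frameshift made by Cas9 need not remove the RNA, so these levels are only a partial check of the labels.

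Gene totals of the 10 GSK3 substrates showed no difference between Gsk3sKO and Ctrl that passed the test. With limma on log2(FPKM + 1), 0 of 10 gene totals had an unadjusted p under 0.05, and the adjusted p-values were 0.792 to 0.995. Across all 12874 gene totals tested, 6.56% had an unadjusted p under 0.05. An ordinary linear model, without limma's sharing of variance between genes, called 1 of the 10 (Map1b), against 5.4% of all genes. The log2 fold changes lay between -0.14 (Map2) and 0.28 (Map4), 7 above 0 and 3 below, with a median of 0.04 against -0.06 over all genes. The 95% confidence intervals differed in width between genes, from 0.905-fold to 1.33-fold of Ctrl for Map1b to 0.676-fold to 1.51-fold for Clasp1, and reached up to 1.55-fold for Map4. The groups did not overlap for 1 of 10 genes, against 12% of all genes.

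**Figure D1:**
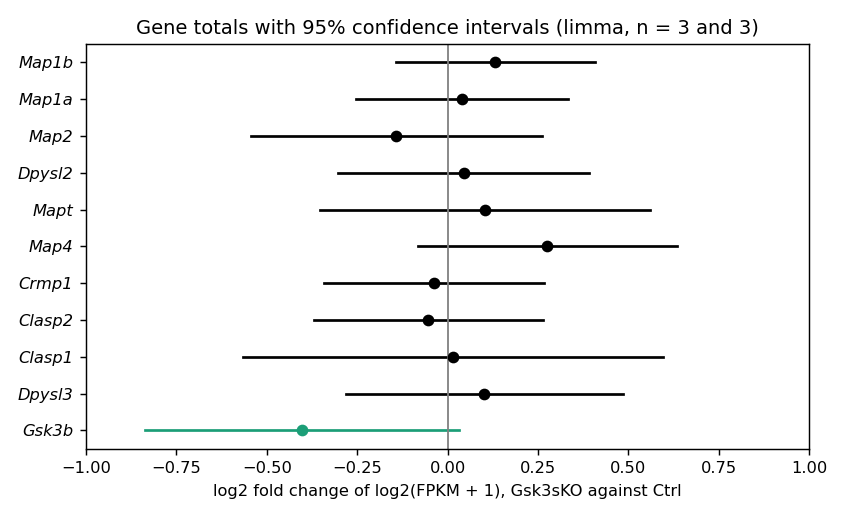
Log2 fold change of the gene total (x axis, log2(FPKM + 1) scale, Gsk3sKO against Ctrl) for the 10 substrates (black) and Gsk3b (green), with lines for the 95% confidence interval. All 11 intervals include 0, and that of Gsk3b, from -0.84 to 0.03, lies furthest to the left.

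The substrates were abundant, and the median spread of their totals was below that of all genes, though it differed between members. The highest library was 1.15-fold the lowest for Map1b and 1.75-fold for Clasp1. Within groups, the median SD of the 10 gene totals was 0.177 on the log2 scale, against 0.294 over all tested genes and 0.208 over the 3460 genes of at least 20 FPKM. By mean FPKM over the 6 libraries the order was Map1b (369), Map1a (243), Map2 (216), Dpysl2 (160), Mapt (100.3), Map4 (95.3), Crmp1 (57.5), Clasp2 (45.8), Clasp1 (22.8) and Dpysl3 (20.9). Map1b was above 99.2% of tested genes and Dpysl3 above 73.1%. The neighbours Map1a and Map2, Mapt and Map4, and Clasp1 and Dpysl3 were in this order in only 4 of 6 libraries, and so did not differ beyond their spread. The other neighbours kept their order in 6 of 6 libraries, although the ranges of Map2 and Dpysl2 overlapped. The 10 totals summed to 1310, 1274 and 1332 FPKM in Ctrl and to 1401, 1348 and 1312 FPKM in Gsk3sKO. These sums overlapped, and the ratio of the means was 1.04.

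**Figure D2:**
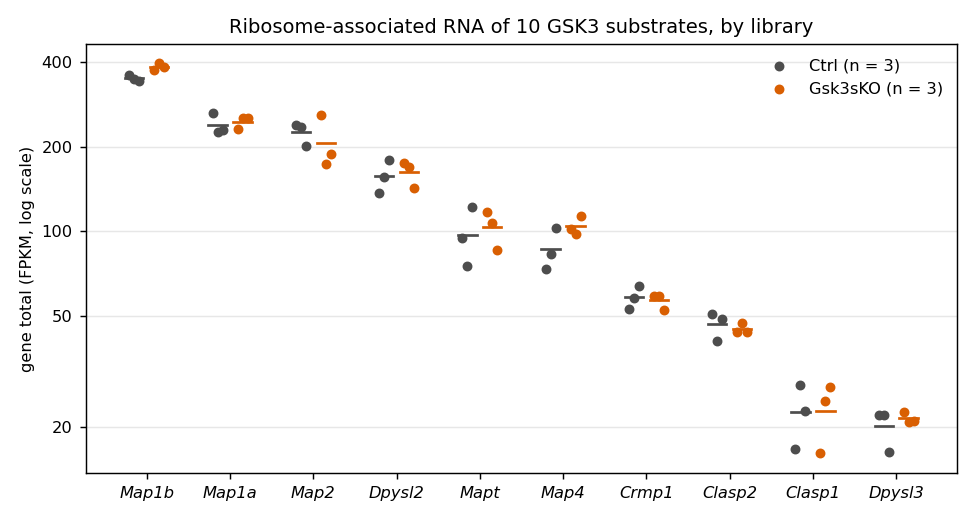
Gene totals (FPKM, log scale) of the 10 substrates, with 1 point per library and a bar at the group mean (Ctrl grey, Gsk3sKO orange, 3 libraries each). Map1b, at 344 to 396 FPKM, is the only gene whose groups are separate, and Clasp1 and Dpysl3 have the lowest levels.

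In the tau/MAP2 family, the summed level of the 3 genes was 409 ± 16.0 FPKM in Ctrl and 414 ± 55.5 FPKM in Gsk3sKO (SD, n = 3 and 3, exact permutation p = 1). Mapt (ENSMUSG00000018411, chr11:104231390-104332090) had 94.4, 75.4 and 122 FPKM in Ctrl and 117, 107 and 85.7 FPKM in Gsk3sKO. The ranges crossed, and the log2 fold change was 0.10 ± 0.20 (SE, limma adjusted p = 0.941). Map2 (ENSMUSG00000015222, chr1:66175273-66442583) had 239, 236 and 202 FPKM in Ctrl and 259, 173 and 188 FPKM in Gsk3sKO. Gsk3sKO replicate 1 was the highest of the 6 and the other Gsk3sKO libraries were the lowest, with a log2 fold change of -0.14 ± 0.18 (limma adjusted p = 0.910).

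Map4 (ENSMUSG00000032479, chr9:109931460-110083955), the member expressed most widely outside neurons, had the largest log2 fold change of the 10 genes. Its total was 73.2, 83.2 and 103 FPKM in Ctrl and 101.5, 97.4 and 113 FPKM in Gsk3sKO. Ctrl replicates 1 and 2 were below all Gsk3sKO libraries, and Ctrl replicate 3 was within their range. The log2 fold change was 0.28 ± 0.16 (95% confidence interval -0.08 to 0.63, limma p = 0.114, adjusted p = 0.792, exact permutation p = 0.3), 0.41 (limma p = 0.0292) without Ctrl replicate 3, and 0.16 (limma p = 0.315) without Ctrl replicate 1. Ctrl replicates 1 and 2 were also the libraries with the largest share of summed FPKM in the short RNA Gm23935, named after its values were seen. Its share was 24.3% and 24.9% there, 12.9% in Ctrl replicate 3 and 7.80% to 13.4% in Gsk3sKO, and its part in the Map4 difference was not tested. Most of this total lay in transcript ENSMUST00000169851, which has 3446 bases but a coding length of only 297 bases. This transcript had 41.3, 54.6 and 68.5 FPKM in Ctrl and 73.3, 65.7 and 76.9 FPKM in Gsk3sKO (log2 fold change 0.41 ± 0.20, limma p = 0.0871, exact permutation p = 0.2), and without Ctrl replicate 1 its log2 fold change was 0.23. The rest of Map4, chosen for comparison after its values were seen, had 32.0, 28.6 and 34.6 FPKM in Ctrl and 28.2, 31.7 and 36.5 FPKM in Gsk3sKO, a log2 fold change of 0.02. By these estimates the difference was larger in ENSMUST00000169851 than in the rest. That transcript did not itself pass the test (limma adjusted p = 0.842). Whether it holds any code for the microtubule-binding part of MAP4 was not examined. The Map4 locus overlaps 4 other annotated genes, 3 of them on its strand, and the reads of overlapping genes cannot be separated with certainty. The Map2 locus likewise overlaps Gm24729 and Gm25411 on its strand.

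The main Mapt transcripts divided the gene total in 2 ways that did not follow the groups. Mapt ENSMUST00000106992 (Mapt-204), which lacks both amino-terminal insert exons, had 38.6, 32.7 and 99.8 FPKM in Ctrl and 98.5, 93.9 and 36.5 FPKM in Gsk3sKO. Mapt ENSMUST00000100347 (Mapt-201), which has both inserts, moved the opposite way, with 42.6, 33.4 and 12.7 FPKM in Ctrl and 13.6, 11.7 and 46.5 FPKM in Gsk3sKO. Ctrl replicates 1 and 2 and Gsk3sKO replicate 3 thus had 1 division of the Mapt total, and the other 3 libraries another. Of the 5 Mapt transcripts that could be assigned, those with both inserts made up 49.6%, 51.1% and 12.04% in Ctrl and 13.0%, 12.01% and 56.7% in Gsk3sKO (exact permutation p = 0.9). This division by inserts was added after the values were seen. The planned class was the 93-base repeat exon, which Mapt also has. All 5 assigned Mapt transcripts held it, so its share was 100% in every library and could not differ between the groups. Mapt-201 is annotated with 1362 bases, close to its coding length of 1290 bases, and Mapt-204 with 5253 bases.

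For Map2, transcripts with the 93-base exon made up 1.68%, 30.1% and 0.66% of those that could be assigned in Ctrl and 22.4%, 4.58% and 4.74% in Gsk3sKO (exact permutation p = 1). The high values in Ctrl replicate 2 and Gsk3sKO replicate 1 came from the short form ENSMUST00000114017 (Map2-206), at 56.4 and 46.9 FPKM there and at most 3.01 FPKM in the other 4 libraries. In Ctrl replicate 1 another short form, ENSMUST00000114012 (Map2-203), was at 56.3 FPKM, against 1.26 to 7.24 FPKM elsewhere. The long form ENSMUST00000114013 (Map2-204, coding length 5484 bases), the dendritic high-molecular-weight type, was steadier. It had 132, 120.2 and 122 FPKM in Ctrl and 146, 131 and 114 FPKM in Gsk3sKO, with ranges that crossed and a log2 fold change of 0.06. Its share of the 16 Map2 transcripts with an annotated coding length was 57.1% ± 5.51 in Ctrl and 66.5% ± 11.4 in Gsk3sKO (SD, n = 3 and 3, exact permutation p = 0.3). Many of the 16 are incomplete. Among the 7 with a complete coding sequence, compared after the values were seen, it was 73.1% ± 10.6 and 85.1% ± 9.75 (exact permutation p = 0.2). For Map4, 9 transcripts could be assigned, and ENSMUST00000169851, which held most of the Map4 total, was not among them. Of these 9, the share with the 93-base exon was 48.4%, 65.8% and 35.8% in Ctrl and 69.3%, 100% and 20.6% in Gsk3sKO (exact permutation p = 0.6). Gsk3sKO libraries were both the highest and the lowest. The classes of Map2 and Map4 by the 93-base exon were added after the values were seen.

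**Figure D3:**
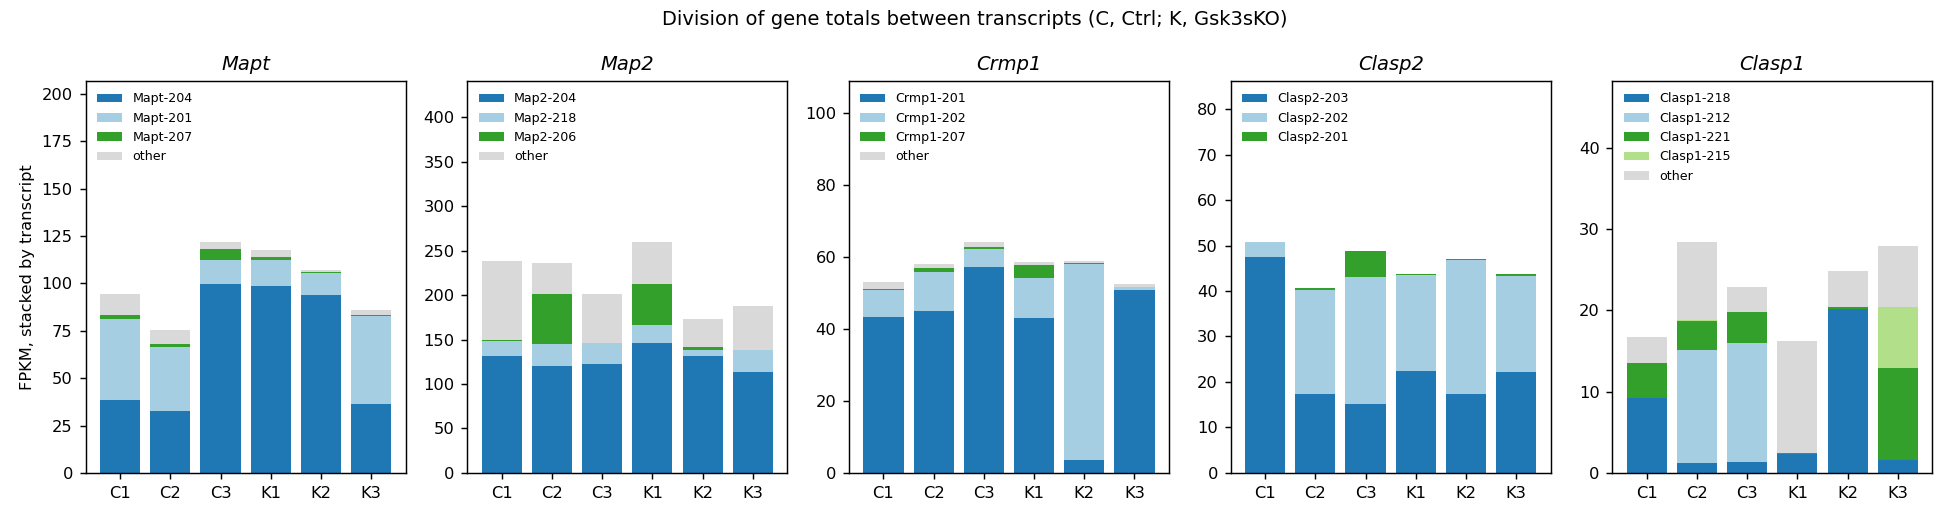
FPKM of Mapt, Map2, Crmp1, Clasp2 and Clasp1 stacked by transcript (colours, names as annotated, remaining transcripts in grey) in Ctrl replicates 1 to 3 (C1 to C3) and Gsk3sKO replicates 1 to 3 (K1 to K3). The heights change less than the colours within them, for example Mapt-204 at 32.7 to 99.8 FPKM and Crmp1-201 at 3.68 to 57.2 FPKM, and the divisions do not follow the groups.

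Map1b (ENSMUSG00000052727, chr13:99421446-99516540), which encodes a protein of growing axons that persists in adult cortex, was the only substrate whose groups did not overlap. Its single listed transcript, ENSMUST00000064762, had 362, 349.8 and 344 FPKM in Ctrl and 376, 396 and 385 FPKM in Gsk3sKO. All 3 Gsk3sKO libraries were above all Ctrl libraries (exact permutation p = 0.1, the smallest that 3 against 3 libraries allow). The log2 fold change was 0.13 ± 0.12 (95% confidence interval -0.14 to 0.41), with a limma p of 0.303 (adjusted p = 0.872). The linear model gave an unadjusted p of 0.0124 (adjusted p = 0.865). That model uses the spread of this gene alone, whose SDs were 9.11 and 10.2 FPKM. The Map1b locus overlaps 1 other annotated gene, 5330431K02Rik, on its strand, and their reads cannot be separated with certainty. Map1a (ENSMUSG00000027254, chr2:121289600-121310832), the MAP1 protein of mature neurons, had 263, 225 and 229.9 FPKM in Ctrl and 231, 254 and 252 FPKM in Gsk3sKO, with crossing ranges and a log2 fold change of 0.04 ± 0.13 (limma adjusted p = 0.963). Summed, the MAP1 family had 591 ± 29.3 FPKM in Ctrl and 631 ± 22.1 FPKM in Gsk3sKO (SD, n = 3 and 3, exact permutation p = 0.2).

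In the CRMP family, Dpysl2 was the main member and its groups crossed. Dpysl2 (ENSMUSG00000022048, chr14:66802864-66868688), with 1 listed transcript, had 137, 155 and 180.1 FPKM in Ctrl and 175, 169 and 142 FPKM in Gsk3sKO (log2 fold change 0.05 ± 0.15, limma adjusted p = 0.964). Dpysl3 (ENSMUSG00000024501, chromosome 18), which encodes CRMP4, had 22.1, 22.2 and 16.4 FPKM in Ctrl and 22.8, 20.9 and 21.1 FPKM in Gsk3sKO (log2 fold change 0.10 ± 0.17, limma adjusted p = 0.932). Ctrl replicate 3 was the lowest of the 6, and the other libraries differed little. Crmp1 (ENSMUSG00000029121, chr5:37241940-37292133), the member with alanine at codon 514, had 53.0, 57.9 and 64.0 FPKM in Ctrl and 58.6, 58.9 and 52.6 FPKM in Gsk3sKO (log2 fold change -0.04 ± 0.13, limma adjusted p = 0.967). The 3 genes summed to 236 ± 24.4 FPKM in Ctrl and 240.3 ± 21.5 FPKM in Gsk3sKO (SD, n = 3 and 3, exact permutation p = 0.8).

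Within Crmp1, 1 library stood apart. The shorter coding form ENSMUST00000031004 (Crmp1-201, coding length 1716 bases) had 43.2, 45.1 and 57.2 FPKM in Ctrl and 43.0, 3.68 and 50.8 FPKM in Gsk3sKO. The longer form ENSMUST00000114158 (Crmp1-202, coding length 2058 bases) had 7.53, 10.8 and 4.96 FPKM in Ctrl and 11.2, 54.4 and 0.91 FPKM in Gsk3sKO. The forms exchanged places in Gsk3sKO replicate 2 while the gene total there, 58.9 FPKM, stayed within the range of the others. The share of the shorter form was 82.9% ± 5.93 in Ctrl and 58.7% ± 46.9 in Gsk3sKO (SD, n = 3 and 3, exact permutation p = 0.6). For Dpysl3, the main transcript ENSMUST00000025379 took 87.3%, 80.8% and 51.8% of the total in Ctrl and 83.1%, 84.5% and 70.4% in Gsk3sKO (exact permutation p = 0.8).

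The CLASPs were the least abundant family, with 69.4 ± 2.19 FPKM in Ctrl and 67.8 ± 6.76 FPKM in Gsk3sKO for the 2 genes together (SD, n = 3 and 3, exact permutation p = 0.9). Clasp2 (ENSMUSG00000033392, chr9:113741473-113919682) had 50.7, 40.6 and 48.8 FPKM in Ctrl and 43.8, 46.9 and 43.7 FPKM in Gsk3sKO (log2 fold change -0.05 ± 0.14, limma adjusted p = 0.956). Clasp1 (ENSMUSG00000064302, chr1:118389058-118612678) had 16.7, 28.3 and 22.9 FPKM in Ctrl and 16.2, 24.8 and 27.9 FPKM in Gsk3sKO (log2 fold change 0.02 ± 0.25, limma adjusted p = 0.995). Both ranges crossed, and Clasp1 had the widest interval of the 10 genes. Clasp1 also had the most listed transcripts (30), and its most abundant, ENSMUST00000190571 (Clasp1-218), had 9.21, 1.19 and 1.31 FPKM in Ctrl and 2.33, 20.1 and 1.53 FPKM in Gsk3sKO. Clasp2 was divided between ENSMUST00000166734 (Clasp2-203), with 47.5, 17.3 and 15.1 FPKM in Ctrl and 22.3, 17.4 and 22.1 FPKM in Gsk3sKO, and ENSMUST00000163895 (Clasp2-202), with 3.19, 22.8 and 28.0 FPKM in Ctrl and 21.1, 29.3 and 21.2 FPKM in Gsk3sKO. Ctrl replicate 1 stood apart in this division.

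Of the 108 listed transcripts, 100 were above 0 in at least 1 library and 46 reached the mean of 1 FPKM needed for the test. With limma, 0 of these 46 had an unadjusted p under 0.05, against 5.56% of all 21584 transcripts tested, and the ordinary linear model called 1 of them (Map1b ENSMUST00000064762), against 5.1% of all transcripts. Adjusted p-values were 0.842 to 0.999. The median absolute log2 fold change of the 46 transcripts was 0.47, against 0.35 over all transcripts, while for gene totals it was 0.08 against 0.19 over all genes. The median SD within groups was 0.759 on the log2 scale for these transcripts and 0.599 for all transcripts. Of 22 member transcripts that reached 10 FPKM in some library, 6 (27.3%) were under 1 FPKM in another, close to the 26.0% among 9386 such transcripts in the whole table.

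The groups did not overlap for 3 of the 46 transcripts, against 11.2% of all transcripts. Beside that of Map1b, these were 2 minor transcripts, named after their values were seen. Mapt ENSMUST00000132245 had 1.97, 1.62 and 5.41 FPKM in Ctrl and 1.60, 0.161 and 0.085 FPKM in Gsk3sKO (log2 fold change -1.31, limma adjusted p = 0.842, exact permutation p = 0.1). Map2 ENSMUST00000172486 had 1.84, 2.09 and 1.43 FPKM in Ctrl and 1.21, 0.678 and 0 FPKM in Gsk3sKO (log2 fold change -0.84, limma adjusted p = 0.857, exact permutation p = 0.1). The lowest p of the 46 transcripts belonged to Clasp1 ENSMUST00000189262 (Clasp1-212), also named after its values were seen. It was listed at 0 in Ctrl replicate 1, at 14.0 and 14.6 FPKM in Ctrl replicates 2 and 3, and at 0 in all Gsk3sKO libraries (log2 fold change on this scale -2.62, limma p = 0.0521, exact permutation p = 0.4). Without Ctrl replicate 1 the log2 fold change of ENSMUST00000189262 was -3.93 (limma adjusted p = 0.144). The Clasp1 gene total did not show this difference.

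To set the substrates beside the machinery they work with, 62 other microtubule regulators were examined, of which 59 could be tested. As gene totals, 2 of the 59 (3.39%) had an unadjusted limma p under 0.05, against 6.56% of all genes, and their median log2 fold change was 0.00. Stmn1, whose product stathmin binds tubulin dimers and promotes microtubule disassembly, had 541, 597 and 415 FPKM in Ctrl and 714, 675 and 687 FPKM in Gsk3sKO. All Gsk3sKO libraries were above all Ctrl libraries, and the log2 fold change was 0.43 ± 0.17 (SE, limma p = 0.0306, adjusted p = 0.736, exact permutation p = 0.1). Without Ctrl replicate 3, the lowest library, it was 0.28 and no longer passed the test. Mapre2, which encodes the plus-end binding protein EB2, had 89.0, 55.0 and 54.2 FPKM in Ctrl and 44.9, 46.4 and 46.6 FPKM in Gsk3sKO. The groups did not overlap, but Ctrl replicate 1 was far above the other Ctrl libraries. Its log2 fold change was -0.47 ± 0.20 (limma p = 0.043, adjusted p = 0.750, exact permutation p = 0.1), and -0.24 without Ctrl replicate 1, where it no longer passed. When any 1 of the Gsk3sKO libraries was left out neither passed, although the log2 fold changes were then 0.41 to 0.45 for Stmn1 and -0.48 to -0.46 for Mapre2.

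**Figure D4:**
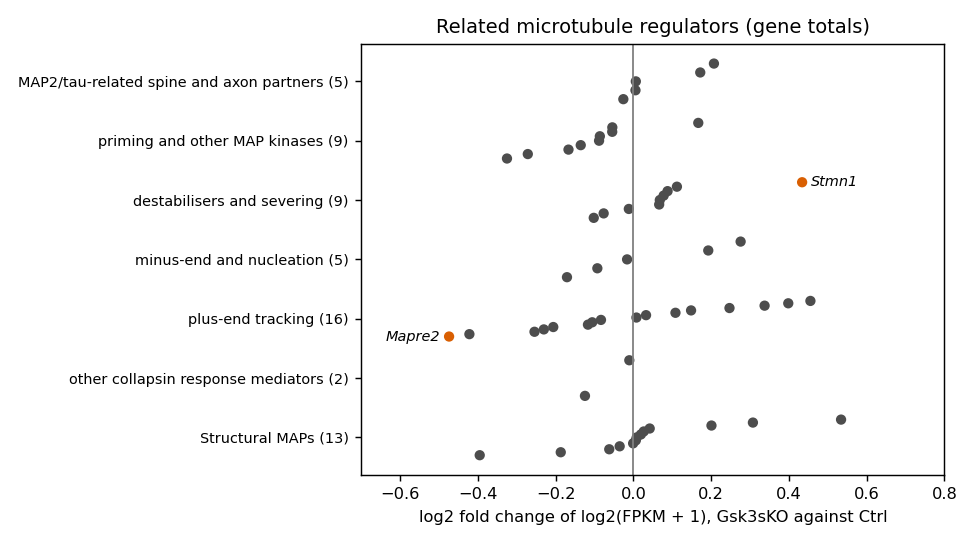
Log2 fold change of the gene total (x axis, log2(FPKM + 1) scale, Gsk3sKO against Ctrl) of the 59 tested regulators, 1 point per gene, arranged by role with the number of genes in brackets. Orange points, Stmn1 at 0.43 and Mapre2 at -0.47, have an unadjusted limma p under 0.05, and the other 57 are grey.

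By role, 0 of 13 further structural MAPs, 0 of 2 other CRMP genes, 1 of 16 plus-end tracking genes (Mapre2), 0 of 5 minus-end and nucleation genes, and 1 of 9 tested destabilising and severing genes (Stmn1) had an unadjusted p under 0.05. The same held for 0 of 9 priming and other kinases of these proteins and 0 of 5 spectrin and ankyrin genes. The other stathmins had log2 fold changes of -0.01 (Stmn2), 0.08 (Stmn3) and 0.07 (Stmn4), so the difference of Stmn1 was not seen across that family. Among kinases that prime substrates for GSK3, Cdk5 had 31.2, 28.2 and 26.2 FPKM in Ctrl and 29.8, 26.4 and 21.9 FPKM in Gsk3sKO (log2 fold change -0.14), and Dyrk2 had 16.9, 16.9 and 17.2 FPKM in Ctrl and 14.0, 18.9 and 10.1 FPKM in Gsk3sKO (-0.27). Dyrk1a, another kinase of the list, had 16.4, 20.2 and 18.6 FPKM in Ctrl and 16.6, 24.5 and 21.9 FPKM in Gsk3sKO (0.17). The CDK5 activator gene Cdk5r2 had 50.1, 44.2 and 43.5 FPKM in Ctrl and 39.1, 39.3 and 31.4 FPKM in Gsk3sKO (-0.33 ± 0.15, SE, limma p = 0.0564, adjusted p = 0.767, exact permutation p = 0.1). Together with Stmn1, Mapre2 and Dclk1 it was 1 of 4 of the 59 tested regulators (6.78%) whose groups did not overlap, against 12% of all genes, and Cdk5r2 and Dclk1 were named for that reason. Dclk1, a doublecortin-like kinase that binds microtubules, had 71.8, 83.9 and 78.8 FPKM in Ctrl and 86.7, 90.4 and 92.4 FPKM in Gsk3sKO (log2 fold change 0.20, limma adjusted p = 0.809).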

How the data were processed

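Ribosome-associated RNA from 3 Ctrl and 3 Gsk3sKO in mPFC D2 libraries was analysed. The authors deposited FPKM values per transcript and library. The submitters' processing notes name HISAT2 2.1.0, SAMtools 1.9, StringTie 1.3.4d and GRCm38, and no source used here gives their settings. StringTie divides reads between overlapping transcripts by estimation. The authors also deposited a fold (ratio) and a p-value and q-value of their own comparison per transcript, which were not used. The files hold no counts, and 37.7% to 51.0% of the low values compared lay within 0.05 of a whole step, so the depths given are approximate. No columns of library values (0) were left out.

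Values were summed by gene identifier. Features with a mean of at least 1 FPKM over the 6 libraries were tested on log2(FPKM + 1) with limma 3.58.1 in R 4.3.3 (lmFit, eBayes with a trend, 2-sided, no covariates, Benjamini-Hochberg adjustment over all features tested). This scale understates changes of low values. A call was an unadjusted p under 0.05, the loosest level that the paper's statistics section sets for t-tests between 2 groups. That section does not name the RNA sequencing. Exact permutation tests over libraries were 2-sided. In simulated data, a log2 change of 1 was called in 85.9% of the gene totals and 53.9% of the transcripts that carried it, and reached an adjusted p under 0.05 in 32.6% and 0% of them. Among features left unchanged, 5.56% of gene totals and 5.68% of transcripts were called. The simulated noise was normal and independent between features, so reads moving between transcripts of a gene were not simulated. Nor were changes below 1, so recovery of smaller differences is not known. Alternatives were another pseudocount (0.1), no filter or a mean of 5 FPKM, other variance models, rescaling, a replicate block and leaving out each library.

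Named were all members and Gsk3b, the most abundant transcript of each, transcripts and related genes with an unadjusted p under 0.05, and others only where said. The members and lists were chosen with earlier results of these data known. Transcript structures and coding sequences came from GENCODE M21 (GRCm38), in which 1 listed Dpysl3 transcript was not found. Python 3.11.15 with pandas 2.3.3, numpy 2.4.6, biopython 1.88 and matplotlib 3.10.9 served for all else.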

Additional observations from a re-analysis of the deposited data

How the results depend on the processing

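The count of member gene totals with an unadjusted p under 0.05, 0 with limma, was 1 with the linear model (Map1b) and 0 to 1 when each library was left out in turn, the 1 being Map4 without Ctrl replicate 3. For member transcripts the count of 0 became 1 without a filter, 1 with eBayes without a trend, 1 with the linear model and 1 after rescaling by the median ratio (Map4 ENSMUST00000169851, 0.47), and 0 to 3 when libraries were left out. The 2 related regulators became 1 without a filter (Cdk5r2), 0 with eBayes without a trend, 1 with the linear model (Dclk1), and 1 to 4 when libraries were left out. After rescaling they were 3, Stmn1, Mapre3 and Mtus2. With a replicate block, 0 member gene totals and 0 member transcripts were called, and 1 related regulator, Stmn1. Libraries of the same number did not deviate together (correlations -0.03, -0.01 and -0.08), so the numbers were not read as pairs, and the block changed no other call. The log2 fold change of Gsk3b was -0.61 to -0.28 when libraries were left out.

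Directions of small differences were not stable. Leaving out single libraries gave log2 fold changes of gene totals of -0.063 to 0.28 for Mapt, -0.0036 to 0.11 for Map1a, -0.052 to 0.15 for Dpysl2, -0.035 to 0.17 for Dpysl3, -0.18 to 0.24 for Clasp1, -0.15 to 0.0076 for Clasp2 and -0.10 to 0.031 for Crmp1. After rescaling Clasp2 was 0.0025 and Crmp1 0.019. For transcripts the ranges were -0.0017 to 0.15 for Map1a ENSMUST00000110639, -0.026 to 0.15 for Map2 ENSMUST00000114013, -0.12 to 0.43 for Dpysl3 ENSMUST00000025379, -0.36 to 1.32 for Clasp1 ENSMUST00000190571 and -0.47 to 0.32 for Clasp2 ENSMUST00000166734. Map1b (0.11 to 0.15), Map2 (-0.32 to -0.025) and Map4 (0.16 to 0.41) kept their direction, with Map2 at its lowest without Gsk3sKO replicate 1 and nearest 0 without Gsk3sKO replicate 2. Rescaling moved the median of all genes from -0.06 to -0.01 and the difference in the summed FPKM of the 10 members from 48.2 to 99.7 FPKM. The causes of these shifts were not tested. With 3 libraries a group, changes inside the confidence intervals could not be resolved, and no read counts were available to set the precision of single transcripts.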
